A study of Mus musculus with 33 samples.

Results

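The response of wild-type macrophages to interferon beta was followed on 4 bead arrays, chosen by their labels from the 33 arrays of the series. Macrophages grown from bone marrow (BMDM) account for 23 of the 33. The 3 IFNb arrays were WT BMDM given interferon beta (IFNb) for 1, 3 or 8 h, and they were set against the WT BMDM array titled LPS 0 h, an unstimulated array. Arrays outside the course were IFNARKO BMDM, which lack the type I interferon receptor, and WT BMDM, both given lipopolysaccharide (LPS) for 3 h, and the unstimulated WT BMDM array of the CpG series. All of these were C57BL/6 cells, cultured for 5 to 8 days with L929-conditioned medium, and the labels give neither the dose of IFNb nor the age of the mice. The course had no 0 h array under its own IFNb title. Each time had 1 array, so the differences below have no replicate check and carry no p-value, and the labels do not say whether the times came from separate cultures or animals.

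Interferon beta binds the receptor IFNAR on the cell surface, and the kinases JAK1 and TYK2 then signal to transcription factors such as STAT2 and IRF9. These act at the interferon-stimulated response element (ISRE) in the promoters of antiviral genes, and the GAS element is a further interferon-responsive sequence. Macrophages carry this receptor at rest, and the genes that follow include enzymes that block viral RNA, GTPases that attack the compartments of microbes, the machinery of antigen presentation and proteins such as USP18 that shut the receptor off again.

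Summed signal lay between 8030000 and 10870000 intensity units on the 4 arrays, and 11462 to 11934 probes (44.6 to 46.4%) were above background, meaning a detection p under 0.01. The 8 h array was the dimmest. A gene was tested where a probe was above background on at least 1 of the 4 arrays, which left 8636 genes, each given by its brightest probe. Levels below are normalized log2 intensities and can be compared only within a gene. All 11 measured macrophage markers were above background on all 4 arrays. Lyz2, a lysozyme, had levels of 15.01, 15.13, 15.16 and 14.87 at 0, 1, 3 and 8 h. Adgre1, an adhesion receptor that marks mouse macrophages, had 12.72, 12.76, 12.68 and 12.78, and Itgam, an integrin, had 6.28, 6.42, 6.30 and 6.14. Cx3cr1, the fractalkine receptor, had 6.58, 6.58, 5.79 and 5.73, and was not called. Of the markers of other cells, 10 of 12 for lymphocytes, 8 of 9 for fibroblasts and 7 of 10 for dendritic cells were not above background on any of the 4 arrays. The 9 measured granulocyte and progenitor markers were above background, and their summed intensity was 7395 at 0 h, 10270 at 1 h, 7338 at 3 h and 5718 at 8 h. In such bulk samples fewer cells of a type and less RNA per cell cannot be told apart.

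A gene was called where it differed at least 2-fold from 0 h and was above background on the brighter array. After 1 h, 27 genes were called higher (0.313% of all tested) and 2 lower (0.0232%). After 3 h, 231 were higher (2.67%) and 36 lower (0.417%), and after 8 h, 122 were higher (1.41%) and 34 lower (0.394%). At 1 or more times 246 genes were higher (2.85%) and 68 lower (0.787%). The median difference over all genes was -0.01, -0.07 and -0.04 (log2) at 1, 3 and 8 h. With each array scaled to its median instead, the 8 h median over all genes was -0.21, and the 8 h calls became 99 higher and 65 lower.

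The spread between these differences can be set against that between the 2 unstimulated WT arrays of the study, one of the LPS series, used here as 0 h, and one of the CpG series. Between that pair the standard deviation over genes was 0.55 (log2), against 0.24, 0.5 and 0.39 for the differences at 1, 3 and 8 h. In the CpG-series array 324 genes were at least 2-fold higher and 202 lower than in the LPS-series array. The CpG series was brighter in all (15020000 intensity units for that array), and which part of the pair's difference is technical was not tested. With the CpG-series array as 0 h, 227, 367 and 291 genes were higher and 438, 499 and 533 lower at 1, 3 and 8 h.

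Most genes had their highest level at 3 h. Of the 246 higher genes, 27 were first called at 1 h, 205 at 3 h and 14 at 8 h. The highest of the 3 levels fell at 3 h for 198 genes, at 8 h for 47 and at 1 h for 1, Retnlg. A gene counted as decayed where its 8 h level was at least 2-fold below its highest level, and as transient where it was then also called no longer. By this rule 105 genes had decayed by 8 h, 70 of them were transient and 35 were still called, while 141 had not decayed. Of these 141, 87 were still called at 8 h and the others were called no longer, so not decayed does not mean still raised 2-fold. Of the 27 genes with onset at 1 h, 20 had decayed, 8 of them to within 2-fold of 0 h. Of the 205 with onset at 3 h, 85 had decayed, 62 of them to within 2-fold of 0 h. Median fold of the 8 h over the 3 h level was 0.326 for genes with onset at 1 h and 0.557 for those with onset at 3 h, against 1.01 over all genes tested. The rule for onset used the same arrays, so these medians only describe the classes.

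**Figure D1:**
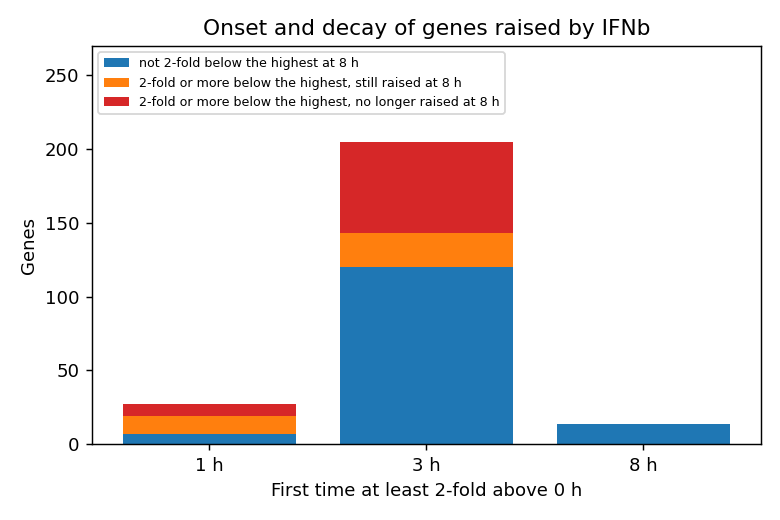
Number of genes (vertical axis) at least 2-fold above 0 h, by the first time at which they were (horizontal axis, hours of IFNb), with colours for their state at 8 h. Of 205 genes with onset at 3 h, 120 had not decayed, and of 27 with onset at 1 h, 7 had not. Over all onsets 141 had not decayed, and 87 of these were still called at 8 h.

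Among the 27 genes with onset at 1 h were antiviral effectors such as Rsad2, Mx2 and Ifit3, and also genes outside the interferon lists such as Cd69, Clec2d, Csrnp1, Gadd45g, Mmp13 and Retnlg. Rsad2, which encodes viperin, an enzyme that makes a chain-terminating nucleotide, had a level of 8.50 at 0 h and 12.11, 14.87 and 11.62 at 1, 3 and 8 h, which is 12.2-, 82.8- and 8.68-fold above 0 h. Its neighbour on the chromosome, the nucleotide kinase gene Cmpk2, had 7.37 at 0 h and 9.66, 13.07 and 9.98. Both were highest at 3 h, and at 8 h they stood 9.53-fold (Rsad2) and 8.50-fold (Cmpk2) below their 3 h levels. Mx2, a dynamin-like GTPase that blocks viruses, was not above background at 0 h (4.91) and had 9.11, 10.66 and 8.15 at 1, 3 and 8 h, at least 17.3-, 50.6- and 8.92-fold higher. Mx1, its paralog, was also below background at 0 h (4.60) and had 6.90, 10.61 and 8.29, at least 3.74-, 49.1- and 9.81-fold higher. Among the named genes, Mx2 thus had the largest difference of the first hour.

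Ifit proteins bind viral RNA without the cap marks of the host, and ISG15 is a ubiquitin-like protein that is attached to other proteins. Ifit3 had 7.88 at 0 h and 10.83, 14.37 and 12.76 at 1, 3 and 8 h (7.72-, 89.9- and 29.3-fold). Ifit2 had 6.48 at 0 h and 8.98, 12.60 and 10.76. Isg15 had 7.14 at 0 h and 8.60, 12.03 and 11.82, so that it was 29.6-fold higher at 3 h and still 25.7-fold higher at 8 h. The enzymes of ISG15 conjugation came later: Uba7, the activating enzyme, was 4.57-fold higher at 3 h and 3.90-fold at 8 h, and Ube2l6, the conjugating enzyme, 3.94-fold and 4.96-fold. Usp18, which removes ISG15 and holds back the receptor, had 8.32 at 0 h and 9.91, 13.30 and 11.06, and was 4.75-fold lower at 8 h than at 3 h. All 7 measured genes of the list of Ifit genes and ISG15 conjugation were higher at 3 h. Of these, 4 were higher already at 1 h and 6 still at 8 h. Their median differences were 1.46, 4.89 and 2.74 (log2), against -0.01, -0.07 and -0.04 over all genes. The list has 10 genes: Ifit1 was not above background on any of the 4 arrays, and Ifit3b and Herc6 had no named probe used here.

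Oligoadenylate synthetases make the messenger that switches on RNase L. Of 8 measured members of that list, 1 was higher at 1 h, 7 at 3 h and 6 at 8 h (medians 0.42, 2.45 and 2.11). Oasl1 was the early one, with 5.47 at 0 h and 7.23, 10.92 and 9.58 at 1, 3 and 8 h. Its 1 h difference was 1.76 (log2) on this probe and 1.24 and 0.07 on 2 others. Oasl2 started high at 10.00 and had 10.27, 12.53 and 12.83, without a decline. Oas3 and Oas1g kept climbing between the later times: Oas3 was 2.85-fold higher at 3 h and 5.53-fold at 8 h, and Oas1g 3.40-fold and 5.27-fold. Trex1, a nuclease that clears DNA from the cytosol, was 2.63-, 9.41- and 4.88-fold higher at 1, 3 and 8 h. Isg20, a nuclease that degrades RNA, was not above background at 0 h and was at least 6.16-fold higher at 3 h and 7.55-fold at 8 h.

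Calls at each of the 3 times depended on the choice of the unstimulated array. For the 27 genes with onset at 1 h, the CpG-series unstimulated array was higher than the LPS-series one by a median of 1.06 (log2), and 14 of the 27 were at least 2-fold apart between the pair. For genes with onset at 8 h the median was 0.81 and 7 of 14 were that far apart, and for those with onset at 3 h it was 0.44 and 40 of 205. Against the CpG-series array the 1 h difference was -0.96 for Ifit2, -1.20 for Oasl1, -0.60 for Usp18, -0.53 for Irf7, -0.78 for Gbp3 and -0.09 for Isg15, each a change of direction. Of the 85 measured genes in the 9 interferon lists, 13 were higher at 1 h, 61 at 3 h and 55 at 8 h against the LPS-series array. Against the CpG-series array these counts were 5, 50 and 36.

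**Figure D2:**
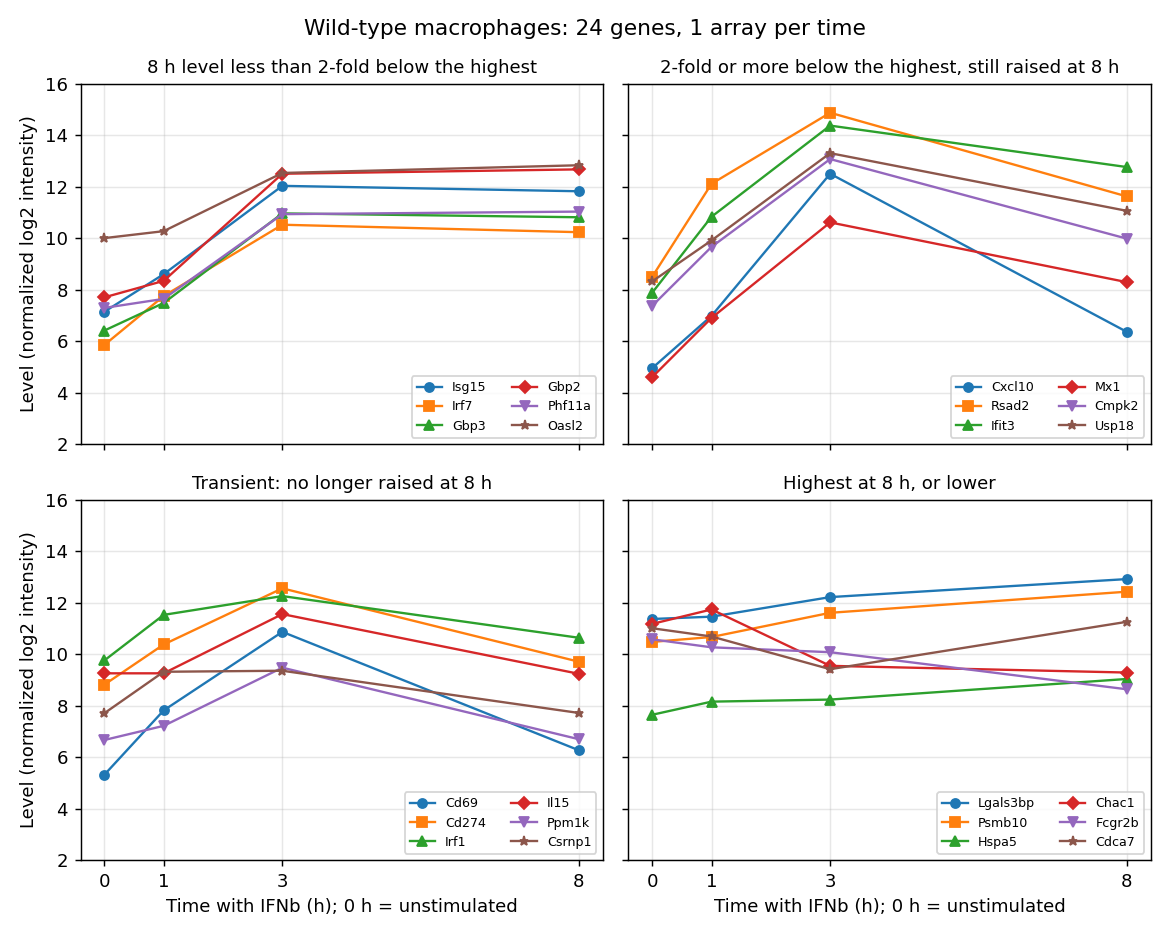
Normalized log2 intensity (vertical axis) of 24 genes at 0, 1, 3 and 8 h (horizontal axis, hours of IFNb), each point 1 array, grouped by their course. Cxcl10 had 12.5 at 3 h and 6.36 at 8 h, whereas Isg15 had 12.03 and 11.82.

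GTPases of the guanylate-binding and immunity-related families gather on the vacuoles of intracellular microbes. Of 11 guanylate-binding protein genes on the list, 4 were measured and 6 were not above background on any of the 4 arrays. All 4 measured genes were higher at 3 h and at 8 h, and 1 at 1 h. Gbp5 and Gbp7 passed the detection filter only through IFNb arrays, so this count is partly set by the filter. Gbp2 had 7.70 at 0 h and 8.34, 12.50 and 12.67 at 1, 3 and 8 h (1.56-, 27.9- and 31.3-fold), and Gbp3 had 6.41 at 0 h and 7.48, 10.96 and 10.81. These 2 genes held their level at 8 h. Gbp5 and Gbp7, not above background at 0 h, were at least 9.33-fold and 12.9-fold higher at 3 h, and at least 2.14-fold and 4.03-fold higher at 8 h. Of the 6 immunity-related GTPase genes called, 4 had decayed at 8 h. Igtp had 7.68 at 0 h and 8.95, 12.02 and 9.99 at 1, 3 and 8 h, and Irgm2 had 8.05 at 0 h and 9.63, 12.19 and 10.28. Irgm1, which was high before treatment, had 12.87 at 0 h and 12.95, 13.72 and 13.06 and was not called. In all, 3, 6 and 4 of 7 measured members of this list were higher at 1, 3 and 8 h.

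The measured receptor chain and kinases were not called, while several factors at the end of the pathway were higher. Ifnar2, a receptor chain, had differences of -0.29, -0.03 and -0.05 (log2) at 1, 3 and 8 h, and Jak1 had -0.25, -0.01 and -0.01. Ifnar1 was not above background on any of the 4 arrays. Irf7, the factor that switches on the interferon alpha genes, had 5.85 at 0 h and 7.75, 10.52 and 10.23 (3.73-, 25.4- and 20.8-fold). Stat2 had 6.07 at 0 h and 7.06, 9.48 and 8.35, and Irf9 had 8.94 and then 9.50, 10.13 and 9.78. Irf1 was already 3.41-fold higher at 1 h and was transient, with 9.76 at 0 h and 11.53, 12.26 and 10.64. Of the 13 measured genes of the receptor, JAK-STAT and IRF list, 2, 5 and 2 were higher at 1, 3 and 8 h. Among genes of negative feedback, 2 of 8 measured were higher at 3 h, Usp18 and Cd274, and Socs3 had differences of 0.35, -0.21 and -0.96. Of 11 type I interferon genes on the list, 10, Ifnb1 included, were not above background on any of the 4 arrays. Ifna6 was above it on all 4, with 5.86 at 0 h and 6.00, 5.90 and 5.94.

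Sensors of nucleic acids followed at 3 h. Of 14 measured, 0 were higher at 1 h, 10 at 3 h and 7 at 8 h. Ddx58 (RIG-I), which detects viral RNA, was 1.88-, 8.89- and 5.70-fold above 0 h at 1, 3 and 8 h, and Dhx58 (LGP2) was 5.58-fold at 3 h and 4.77-fold at 8 h. Ifih1 (MDA5) was not above background at 0 h and was at least 2.86-fold higher at 3 h. Eif2ak2, the kinase PKR that halts translation, was 5.20-fold higher at 3 h and 2.31-fold at 8 h. Zbp1, a sensor of left-handed nucleic acids, kept climbing, at 2.20-fold and 2.96-fold. Restriction factors of the membrane and others gave 0, 9 and 10 of 16 measured. Bst2, which tethers budding virions, was 3.35-fold and 3.57-fold higher at 3 and 8 h, Parp14, an ADP-ribosyltransferase, 10.6-fold and 4.28-fold, and Trim21, an antibody receptor of the cytosol, 7.31-fold and 2.23-fold. A second probe of Trim21 differed by only 0.05 and -0.12 (log2) at 3 and 8 h. A further probe differed by 1.89 and 0.39, so the Trim21 values depend on the probe.

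Of the genes of antigen presentation, 11 were called in the lists of the immunoproteasome and MHC class I. All but H2-Q7 were first called at 3 h, and 9 of the 11 had not decayed at 8 h. In the immunoproteasome, which cuts peptides for MHC class I, all 3 catalytic subunits were higher at 3 h and more so at 8 h: Psmb10 2.18-fold and 3.86-fold, Psmb9 2.77-fold and 3.15-fold, and Psmb8 2.03-fold and 2.56-fold. The activator genes Psme1 and Psme2 were not called. None of 9 measured constitutive proteasome subunits was called, and their differences at the 3 times ran from -0.11 to 0.20. Of 14 measured genes of MHC class I and peptide loading, 0, 7 and 7 were higher at 1, 3 and 8 h. Tap1, a subunit of the peptide transporter, was 6.47-fold higher at 3 h and 2.95-fold at 8 h, whereas Tapbp (tapasin) was 2.51-fold and 3.78-fold, and H2-T23, a nonclassical class I heavy chain, 2.20-fold and 3.26-fold. H2-Q7 was called at 8 h alone, at 2.93-fold. Nlrc5, the transactivator of these genes, was transient at 4.82-fold at 3 h and 1.88-fold at 8 h. The light chain B2m, already at 13.95 at 0 h, had 13.90, 14.10 and 14.47. None of the 6 measured MHC class II genes was called.

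**Figure D3:**
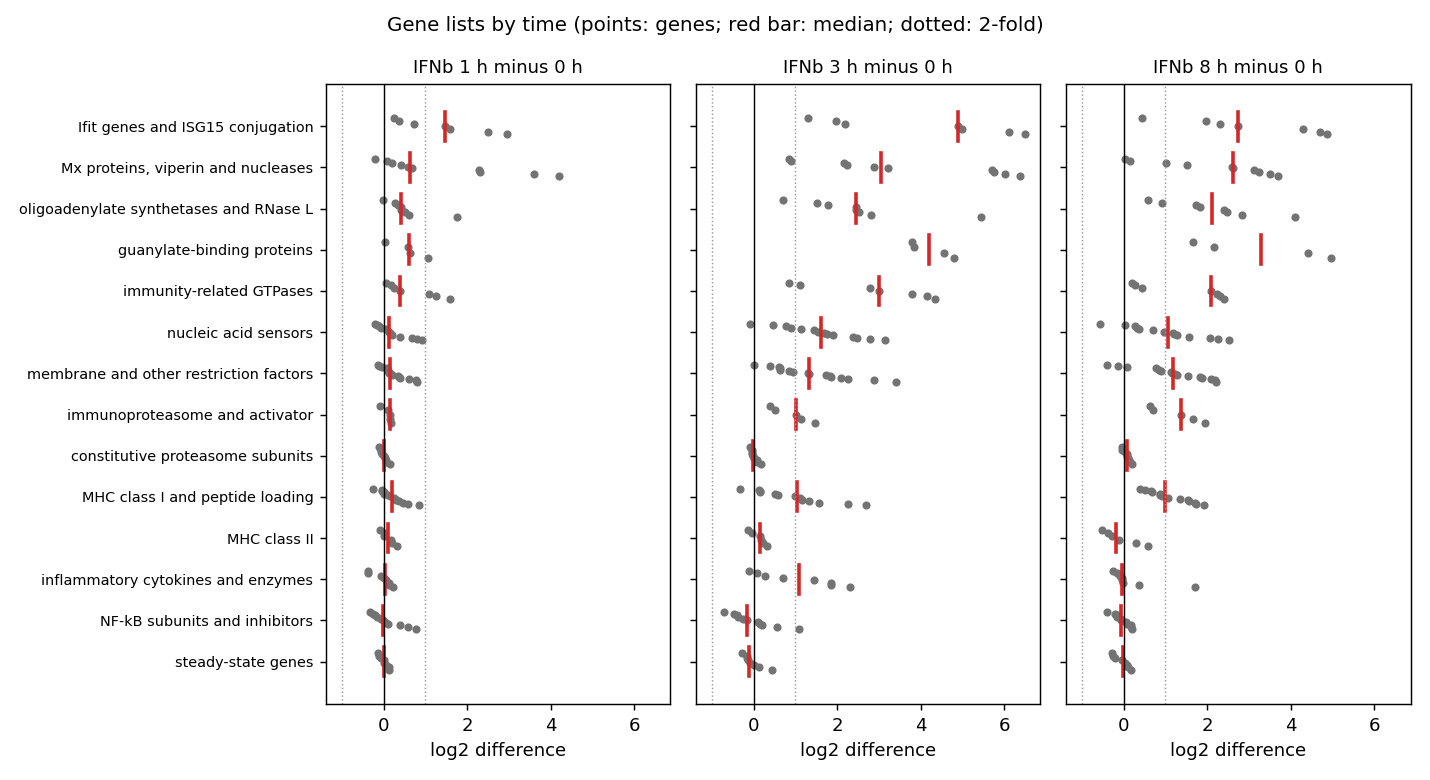
Log2 difference from 0 h (horizontal axis) of each measured gene (points) in 14 gene lists at 1, 3 and 8 h, with the median of each list as a red bar and 2-fold as dotted lines. The list medians of Ifit genes and ISG15 conjugation were 1.46, 4.89 and 2.74, while the constitutive proteasome and steady-state genes stayed near 0.

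Several chemokine, cytokine and surface molecule genes had decayed at 8 h. Cxcl10, a chemokine that draws T cells, was not above background at 0 h (4.95) and had 6.98, 12.50 and 6.36 at 1, 3 and 8 h, at least 3.96-, 182- and 2.58-fold higher. It was 70.5-fold higher at 3 h than at 8 h. Cd69, a lectin that keeps leukocytes in tissue, had 5.32 at 0 h and 7.82, 10.87 and 6.27, and was 24.2-fold higher at 3 h than at 8 h. Clec2d, the gene next to Cd69, had 7.74 at 0 h and 9.22, 10.37 and 8.72. Cd274, the inhibitory ligand PD-L1, had 8.82 at 0 h and 10.38, 12.56 and 9.71 (2.96-, 13.4- and 1.86-fold). Costimulation, activation and adhesion genes gave 2, 4 and 1 of 11 measured at 1, 3 and 8 h. Of these, Cd40 was 3.41-fold higher at 3 h and 1.14-fold at 8 h. Its other probes differed by 1.61, 0.70 and 0.17 (log2) at 3 h. Among the called genes of this list, Ly6e was the exception that did not decay, at 2.53-fold and 4.35-fold.

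Of 8 measured inflammatory cytokine and enzyme genes, 4 were higher at 3 h and 1 at 8 h. Il15, which sustains natural killer cells, had 9.26 at 0 h and 9.26, 11.56 and 9.24 at 1, 3 and 8 h. Il10, a brake on inflammation, had 5.57 at 0 h and 5.80, 7.43 and 5.53. Both were called at 3 h alone. Il27 was at least 1.80-fold higher at 3 h, from below background at 0 h. Il18 was held, at 3.62-fold at 3 h and 3.26-fold at 8 h. Ccl12 (6.67-fold at 3 h) and Ccl4 (2.84-fold) were the 2 called of 8 measured CC chemokines, and 4 of 4 neutrophil chemokines were not above background on any of the 4 arrays. NF-kB subunits and inhibitors gave 0, 1 and 0 of 11 measured, the 1 being Nfkbiz at 2.13-fold, and immediate-early genes 0, 2 and 0 of 18, Atf3 at 2.07-fold and Zfp36 at 2.21-fold.

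Further transient genes were Nod1, a sensor of bacterial peptidoglycan (6.95-fold at 3 h and 1.13-fold at 8 h), Ppm1k, a mitochondrial phosphatase (7.0-fold and 1.02-fold), and its neighbour Nt5c3, a pyrimidine nucleotidase (6.32-fold and 1.49-fold). Ch25h, which makes the antiviral oxysterol 25-hydroxycholesterol, had 8.78 at 0 h and 8.54, 10.44 and 7.93, and was the only 1 called of 13 measured genes of sterol synthesis and oxysterols. Csrnp1, a nuclear protein, had nearly its 3 h level at 1 h, with 7.71 at 0 h and 9.32, 9.36 and 7.72. Retnlg, a gene known from neutrophils, was not above background at 0 h (4.47) and had 5.90, 5.10 and 4.59 at 1, 3 and 8 h. The lowest level above background at 0 h was 5.00, so its lower bound at 1 h falls short of 2-fold, although the rule calls it. The granulocyte and progenitor markers had median differences of 0.46, 0.06 and -0.34 at the same times, and none of 9 was called. Their part in the result for Retnlg was not tested.

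Of 6 cell death genes called, 4 had decayed at 8 h and 2 had not. Of 14 measured, 0, 6 and 5 were higher at 1, 3 and 8 h. Casp4, the caspase-11 gene that senses cytosolic lipopolysaccharide, was 5.14-fold higher at 3 h and 1.25-fold at 8 h, Daxx, a death-domain adaptor, 10.4-fold and 2.77-fold, and the death ligand gene Tnfsf10 (TRAIL) at least 4.42-fold and 1.73-fold. Another probe of Casp4 differed by only 0.68 (log2) at 3 h, against 2.36 on the probe used. Mlkl, the executioner of necroptosis, was 2.38-fold and 2.57-fold higher, without decay. Its second probe differed by 0.76 and 0.78 (log2) at 3 and 8 h, under 2-fold at both times. Fcgr1 and Mertk, both macrophage markers, were among the higher genes. Fcgr1, the high-affinity Fc receptor, was 7.25-fold and 4.58-fold higher at 3 and 8 h. Mertk, a receptor for dying cells, was 2.34-fold higher at 3 h and 1.16-fold at 8 h.

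The 14 genes with onset at 8 h had a median difference of 1.28 (log2) at 8 h, against 0.84 at 8 h and 1.53 at 3 h for genes with onset at 3 h. Lgals3bp, a secreted glycoprotein, had 11.37 at 0 h and 11.46, 12.22 and 12.92 at 1, 3 and 8 h, and Siglec1, a sialic acid receptor of macrophages, had 7.42 and then 7.35, 8.20 and 8.70. Ass1, an enzyme of arginine synthesis, was 2.74-fold higher at 8 h, Fabp3, a fatty acid-binding protein, 2.91-fold, and Eng, a co-receptor of the TGF-beta family, 2.45-fold. Hspa5, the chaperone BiP of the endoplasmic reticulum, had 7.65 at 0 h and 8.16, 8.24 and 9.04, and Ddit3 (CHOP), a factor of the stress response, 8.25 and then 8.54, 7.98 and 9.41. With the CpG-series array as 0 h, the 8 h difference was -0.02 for Lgals3bp, 0.01 for Siglec1 and 0.09 for Ass1. The number of genes with onset at 8 h was 8 with median scaling.

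Of the 68 lower genes, 2 were first called at 1 h, 36 at 3 h and 30 at 8 h. A gene counted as recovered where its 8 h level was at least 2-fold above its lowest and it was called no longer. By this rule 11 had recovered. Only 3 of the 36 with onset at 3 h were still called at 8 h, so not recovered does not mean still 2-fold lower. The calls at each time, 2, 36 and 34 lower at 1, 3 and 8 h, were 0, 23 and 18 with a larger background offset and 0, 14 and 15 in the values normalized by the authors. Irs2, an adaptor of the insulin receptor, had 7.91 at 0 h and 8.30, 6.15 and 7.14. Gadd45a, a growth-arrest gene, had 7.82 at 0 h and 8.57, 6.17 and 7.50, and Cdca7, a gene of chromatin in dividing cells, 11.01 and then 10.69, 9.42 and 11.26. Irs2, Gadd45a and Cdca7 were each called lower at 3 h alone. Fcgr2b, the inhibitory Fc receptor, had 10.58 at 0 h and 10.27, 10.08 and 8.64, but its 8 h difference was 0.05 against the CpG-series array, and -1.64 and -0.52 on its 2 other probes. Gja1, a gap junction protein, had 8.69 at 0 h and 8.67, 8.32 and 6.86.

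Stress genes were called in both directions, at different times. Chac1 was lower at 3 h and 8 h and Herpud1 at 3 h alone, and Hspa5 and Ddit3 were higher at 8 h alone. For Ddit3 a second probe differed by only 0.75 (log2) at 8 h, against 1.16 on the probe used. Chac1, which degrades glutathione, had 11.18 at 0 h and 11.74, 9.55 and 9.29 at 1, 3 and 8 h, and Herpud1, of the degradation machinery of the endoplasmic reticulum, 11.16 and then 11.17, 9.80 and 10.41. Of 15 measured stress genes, 0, 2 and 1 were lower and 0, 0 and 2 higher. Of 34 clustered histone genes, counted after their values were seen, 8 were lower at 8 h, all of them H2A genes (H2ac7, H2ac10, H2ac11, H2ac12, H2ac15, H2ac21, H2ac22 and H2ac24, of 12 measured). Their differences ran from -1.51 for H2ac21 to -1.01 for H2ac24, while the H2B, H3 and H4 genes had medians of 0.25, -0.11 and -0.04 at 8 h. These copies are nearly identical in sequence, so the 8 values may be readings of the same transcripts, and H2ac21 had a difference of 0.38 with the CpG-series array as 0 h.

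Promoter sequence was set beside these courses. RefSeq windows from 250 bases before to 50 bases after the start (GRCm38.p6) were matched by symbol and searched on both strands for the ISRE core (GAAA, any 2 bases, GAAA), the GAS element (TTCNNNGAA) and the kappa B site (GGGA, any base, TTTCC). The stretches below show where these letters lie in 8 genes named above, read 5′ to 3′ along the gene, with the motif letters in capitals. Isg15, Gbp3 and Gbp2 are shown as genes that held their level at 8 h, Ifit3, Rsad2, Cxcl10 and Irgm2 as genes that decayed, and Irf1 as a transient gene with a GAS and no ISRE core in its window.
Isg15, chr4:156200855-156200916, minus strand: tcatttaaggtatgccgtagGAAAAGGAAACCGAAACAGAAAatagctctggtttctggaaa
Ifit3, chr19:34583353-34583436, plus strand: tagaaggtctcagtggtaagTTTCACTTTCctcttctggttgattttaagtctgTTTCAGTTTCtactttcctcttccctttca
Rsad2, chr12:26456543-26456592, minus strand: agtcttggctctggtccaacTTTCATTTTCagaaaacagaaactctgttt
Cxcl10, chr5:92349073-92349122, minus strand: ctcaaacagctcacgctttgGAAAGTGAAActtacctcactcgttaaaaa
Gbp3, chr3:142559979-142560034, plus strand: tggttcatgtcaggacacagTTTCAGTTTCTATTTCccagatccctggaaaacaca
Gbp2, chr3:142620584-142620633, plus strand: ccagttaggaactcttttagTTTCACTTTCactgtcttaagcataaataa
Irgm2, chr11:58214882-58214942, plus strand: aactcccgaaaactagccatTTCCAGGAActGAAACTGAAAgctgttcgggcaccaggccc
Irf1, chr11:53769904-53769952, plus strand: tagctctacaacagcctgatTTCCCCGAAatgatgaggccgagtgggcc

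In 7 of these 8 stretches, all but that of Irf1, the ISRE core appears on either strand, as GAAA pairs or as their complement TTTC. Only genes with an ISRE core or GAS match were shown, so this count does not tell how common the motif is. Among other genes named above, Cmpk2, Ifit2, Irf7 and Oasl1 had no ISRE core in their windows. Isg15 holds 3 overlapping matches, Ifit3 holds 2 apart from each other and Gbp3 holds 2 that overlap. Irgm2 holds a GAS element and an ISRE core side by side. A match describes the letters and is not a shown binding site.

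Among genes with a window, the ISRE core was found in 9 of 23 with onset at 1 h (39.1%), 37 of 168 with onset at 3 h (22%) and 0 of 10 with onset at 8 h, against 285 of 7108 genes tested (4.01%) and 3.44% of all 32851 windows. It was found in 0 of 56 lower genes. By course, it was in 12 of 28 genes that had decayed but were still called (42.9%), in 27 of 115 that had not decayed (23.5%) and in 7 of 58 transient genes (12.1%). GAS was found in 21.7% and 15.5% of genes with onset at 1 and 3 h and in 17.2% of transient genes, against 8.48% of genes tested and 8.30% of all windows. Kappa B sites were in 4 of the 201 higher genes with a window (Csf1, Gbp5, Tifa and Tlr3), 3 of which were transient, against 0.506% of genes tested and 0.411% of all windows. Genes can have several windows, with 1.5 per gene in the transient class and 1.29 over all genes tested. These shares are descriptions of classes drawn from the arrays and were not tested.

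**Figure D4:**
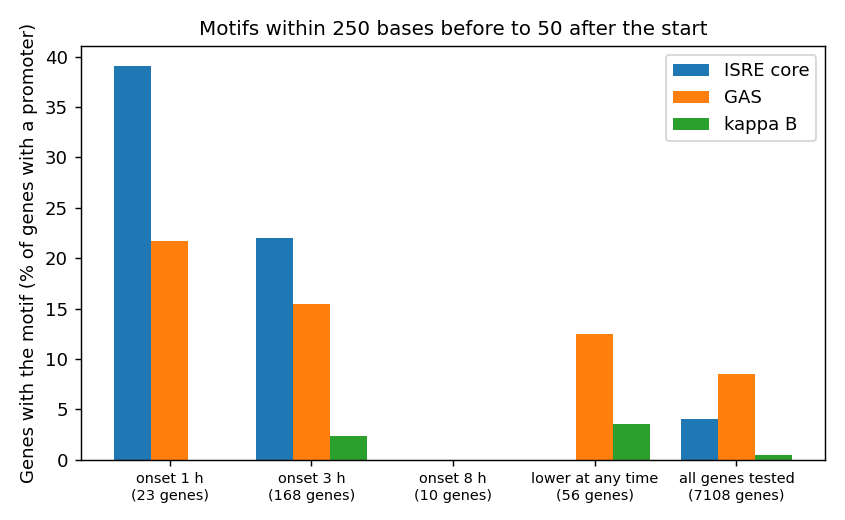
Share of genes with a promoter window (vertical axis, percent) that hold the ISRE core, GAS or kappa B motif, by the class of their course (horizontal axis, with the number of genes). The ISRE core was in 39.1% of genes with onset at 1 h, 22% with onset at 3 h and 4.01% of all genes tested.

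Higher genes also lay next to each other. Of 242 higher genes with a place in the annotation, 76 (31.4%) had an adjacent tested gene that was higher too, against 380 of the other 8362 genes (4.54%). Runs of 4 were Gbp5, Gbp7, Gbp3 and Gbp2, then Psmb9, Tap1, Psmb8 and Tap2, then Ifi214, Ifi204, Ifi202b and Ifi205, and Sp110, Sp140 and Sp100 with C130026I21Rik. Members of a run did not always share a course. In the first run Gbp2 and Gbp3 held their level at 8 h and Gbp5 and Gbp7 had decayed, and in the last Sp140 was transient (6.39-fold at 3 h and 1.65-fold at 8 h) while Sp100 was at least 4.02-fold and 5.60-fold higher. Genes of one family share sequence, so probes may also read each other's transcripts.

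Arrays that the course did not use gave a separate measure of these genes. IFNARKO BMDM were set against WT BMDM, both given LPS, a bacterial cell wall component that makes macrophages secrete interferon beta, for 3 h (1 array each, no test). The unstimulated IFNARKO array was not used. These differences therefore do not separate a lower level before LPS from a smaller response to it. The genotype label was not checked against Ifnar1, whose probe was not above background on the 4 arrays of the course. Of the 27 genes with onset at 1 h, 25 (92.6%) were at least 2-fold lower in IFNARKO, with a median difference of -2.38 (log2). Of 205 with onset at 3 h, 129 (62.9%) were lower (median -1.37), and of 14 with onset at 8 h, 6 (42.9%) were lower (median -0.81). Over all genes tested 6.33% were lower and 7.92% higher. The onset classes also differed in the size of their response, with median 3 h differences with IFNb of 4.34, 1.53 and 0.74 (log2). Time of onset and size of response were not separated here. Ifit3 had a level of 7.36 in IFNARKO cells and 13.53 in WT cells, Igtp 6.42 and 12.45, and Irgm2 6.90 and 12.41. The 2 early genes not lower by 2-fold were Irf1, with 13.36 in IFNARKO cells and 13.91 in WT cells, and Retnlg, with 6.16 and 6.70. Cxcl10 kept a level of 13.13 in IFNARKO cells, against 15.20 in WT cells. Among the 246 higher genes, 3 were at least 2-fold higher in IFNARKO cells: Ifi204 (7.46 in IFNARKO and 6.16 in WT), Rnf144a (6.98 and 5.70) and Acss2 (7.07 and 6.05). Of the 68 genes that IFNb left lower, 25 were higher in IFNARKO cells and 3 lower.

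**Figure D5:**
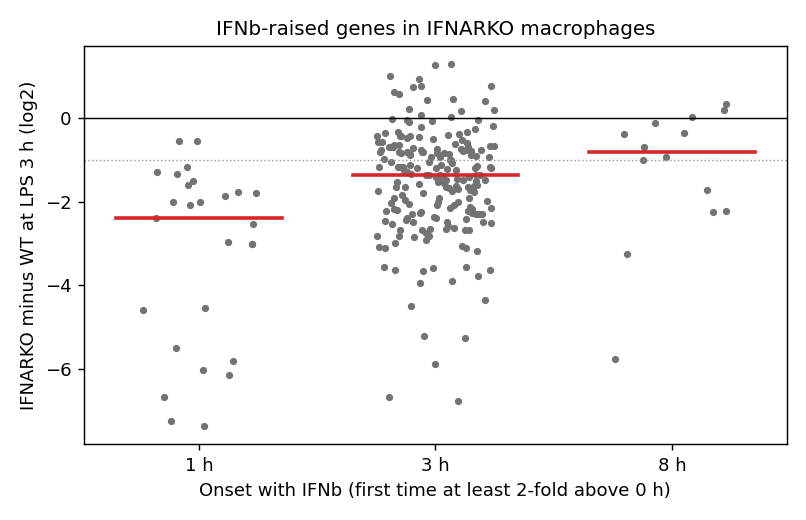
Log2 difference of IFNARKO minus WT macrophages after 3 h of LPS (vertical axis) for each of the 246 genes higher with IFNb (points), by the time of their onset with IFNb (horizontal axis), with class medians as red bars and 2-fold lower as a dotted line. The medians were -2.38, -1.37 and -0.81 for onset at 1, 3 and 8 h. These classes also differed in the size of their response to IFNb.

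The one test these 4 arrays allow sets the mean of the 3 IFNb arrays against the 0 h array, with the spread between the times as its error. By this two-sided limma test, 0 genes passed a Benjamini-Hochberg adjusted p under 0.05 (0% of genes tested, smallest adjusted p = 0.996), and 153 had an unadjusted p under 0.05, 58 higher and 95 lower. Without the 1 h array, 47 genes passed, 46 higher and 1 lower. That fit has 1 residual degree of freedom and takes the difference between 3 h and 8 h as its error, so it favours genes alike at those times and has no replicates behind it. With the CpG-series array in place of the LPS-series one, 905 genes passed, and with both unstimulated arrays 0 did.

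For 93 second probes of genes called higher at 3 h, 92 had the same direction and 72 were at least 2-fold higher. At 1 h these counts were 15 and 12 of 16, and at 8 h 45 and 35 of 46. For genes called lower, 11 of 11 second probes had the same direction at 3 h and 5 were at least 2-fold lower, and at 8 h these counts were 8 and 4 of 9. The matrix metalloproteinase gene Mmp13, called at all 3 times, also differed between probes. Its brightest probe differed by 1.15, 2.17 and 2.08 (log2) at 1, 3 and 8 h. Another of its probes differed by 0.5, 1.4 and 1.13, and a further one by -0.18, -0.04 and 0.16.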

How the data were processed

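RNA was measured on single-colour Illumina bead arrays. Values were probe intensity, deposited by the authors without normalization, and the detection p-value deposited beside each. Per the submitters' processing notes the authors used BeadStudio. A second set of intensity values, normalized by the authors in a way not given in the sources used here, was an alternative, and no column was left unmatched (0). Of the probes, 25697 were read and 8 lines held no values. Background was corrected with limma's nec (offset 16), and all 23 BMDM arrays were quantile normalized together and put on log2. Symbols came from the platform annotation (23978 probes with 1 symbol, 0 with several, 1719 with none), updated through a GRCm38.p6 gene table (23962 matched). A gene not above background at 0 h is given as at least N-fold, against the higher of its own 0 h level and the lowest level above background (5.00, log2). Software was R 4.3.3, limma 3.58.1 (lmFit and eBayes, Benjamini-Hochberg adjustment, tested on simulated data), Python 3.11.15, numpy 2.4.6, pandas 2.3.3 and matplotlib 3.10.9. The number of arrays limits the precision.

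Named genes were the 15 largest rises and 10 largest falls among calls at each time, the 8 largest in each class of course, and any member of the 35 gene lists (454 genes); the other genes named were chosen after their values were seen. The genes, lists and classes were chosen with earlier results of these data known. Alternatives covered the offset, the normalization, the detection filter, the choice of probe and the unstimulated array.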

Additional observations from a re-analysis of the deposited data

How the results depend on the processing

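Higher calls kept within 1.5 times of their number under the larger offset, quantile normalization over the 4 arrays, median scaling, the authors' values, both other detection filters and the mean of the detected probes: 22 to 27 at 1 h, 182 to 232 at 3 h and 99 to 122 at 8 h. Lower calls did not: there were 0, 23 and 18 at 1, 3 and 8 h with an offset of 50, 0, 14 and 15 in the authors' values, 1 at 1 h with quantile normalization over the 4 arrays, and 65 at 8 h with median scaling, which also left 8 genes with onset at 8 h. With the CpG-series unstimulated array as 0 h, 227, 367 and 291 genes were higher and 438, 499 and 533 lower, 227 genes had onset at 1 h and 76 at 8 h, 538 were higher at any time, 5 and 36 members of the 9 interferon lists were higher at 1 and 8 h, and limma called 905 genes. Limma called 47 genes without the 1 h array, 0 without the 3 h and 0 without the 8 h array. Reversed named differences all came with the CpG-series array: at 1 h Gbp3 -0.78, Ifit2 -0.96, Irf7 -0.53, Isg15 -0.09, Oasl1 -1.20, Usp18 -0.60 and Hykk 0.03, and at 8 h Fcgr2b 0.05, H2ac21 0.38, Lgals3bp -0.02 and Prf1 0.94. The cause was not tested. Of 110 named differences, 13 crossed 2-fold with an offset of 50, 13 in the authors' values and 27 with the CpG-series array, without a change of direction. No paired analysis was possible because each condition had 1 array and no replicate numbers. Levels near background limit the folds of 38 higher genes not above background at 0 h.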
